A study of Mus musculus with 6 samples.

Results

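The tropomyosin genes *Tpm1*, *Tpm2*, *Tpm3* and *Tpm4* and the *Tpm3* retrocopy *Tpm3-rs7* were described in the proximal tibial epiphysis of LS1 and Control mice, 5 of the 47729 genes in the expression table. They were chosen by symbol, and because *Tpm3* and *Tpm3-rs7* were already known to differ between LS1 and Control in this table. The LS1 against Control values of all 5 genes are therefore given as a description. No p is printed for them, and where the number of members past a threshold is given, it is a description too. RNAseq was made from 3 LS1 and 3 Control mice of generation F13, each from a different family, at 14 days of age. LS1 is Longshanks 1, a line selected over generations for a longer tibia at a given body mass. Control is a line of the same stock (ICR) that was bred at random. The lines differ by selection and breeding history, and not by a single engineered allele. Both proximal epiphyses of a mouse were pooled into 1 library, which took in the growth plate and metaphysis together with the articular cartilage and the ossification centre of the epiphysis, so that bone, cartilage and marrow are mixed. In such tissue, fewer cells of a type and less RNA per cell cannot be told apart.

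Tropomyosins are coiled-coil proteins that lie end to end along the actin filament and govern which myosins, severing proteins and capping proteins can act on it. *Tpm1* and *Tpm2* encode the main muscle forms beside non-muscle forms. *Tpm3* encodes slow-muscle and many cytoskeletal forms, and *Tpm4* encodes a non-muscle form that is abundant in blood platelets. A retrocopy arises when a spliced mRNA is copied back into the genome, so it lacks introns and resembles 1 mature transcript of its parent.

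On GRCm38, *Tpm3* (ENSMUSG00000027940) spans chr3:90072649-90100902 on the plus strand. *Tpm3-rs7* (ENSMUSG00000058126) is a single exon at chr14:113314608-113316754, also on the plus strand. GENCODE M21 lists *Tpm3-rs7* as protein coding, and whether it makes a protein was not tested. The other members are *Tpm1* (ENSMUSG00000032366) at chr9:67022590-67049406 and *Tpm2* (ENSMUSG00000028464) at chr4:43514711-43523765, both on the minus strand, and *Tpm4* (ENSMUSG00000031799) at chr8:72134975-72153142 on the plus strand.

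The retrocopy matched the transcript Tpm3-201, which has 8 exons, along 2108 aligned columns with 99.1% identity. The alignment held 13 substitutions, of which 3 were in the coding part, 10 in the 3′ UTR and 0 in the 5′ UTR, and 3 gaps of 6 bases in all, each in the 3′ UTR. The coding part was 747 bases long in both, stop codon included, and the reading frame of the retrocopy was open over 248 codons. The 3 coding substitutions were G72A, G98A and G127A, counted from 1 at the A of the start codon with the *Tpm3* base first. All 3 lie in the first exon of Tpm3-201, and they fall on codon bases 3, 2 and 1. The stretch that holds them is shown because it is the only coding part in which the reference copies can be told apart. It is coding bases 52 to 147, spliced across chr3:90079783-90086460 in *Tpm3* and unbroken at chr14:113314727-113314822 in *Tpm3-rs7*, and capitals mark the differing bases.
Tpm3: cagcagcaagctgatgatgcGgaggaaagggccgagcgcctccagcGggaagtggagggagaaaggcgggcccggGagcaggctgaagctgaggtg
Tpm3-rs7: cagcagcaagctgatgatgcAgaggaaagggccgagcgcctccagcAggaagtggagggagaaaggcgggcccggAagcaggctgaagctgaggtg

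After the last of these substitutions the copies share a run of 624 identical bases. The next 60 coding bases (148 to 207, chr3:90086461-90086520 and chr14:113314823-113314882) fall in that run. They are shown with the homologous stretches of the other tropomyosins, to show how far apart the paralogs are where the retrocopy and *Tpm3* are the same, and capitals mark bases that differ from *Tpm3*.
Tpm3: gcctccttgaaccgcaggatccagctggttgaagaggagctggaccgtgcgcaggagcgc
Tpm3-rs7: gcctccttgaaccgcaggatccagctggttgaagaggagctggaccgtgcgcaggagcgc
Tpm1: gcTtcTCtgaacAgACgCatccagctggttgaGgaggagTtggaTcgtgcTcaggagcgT
Tpm2: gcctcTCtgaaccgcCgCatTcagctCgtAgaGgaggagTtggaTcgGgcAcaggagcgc
Tpm4: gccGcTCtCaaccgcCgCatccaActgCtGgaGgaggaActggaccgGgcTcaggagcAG

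*Tpm1* and *Tpm2* differed from *Tpm3* at 12 of these 60 bases and *Tpm4* at 15. The reads of the study were 35 to 50 bases long, so every stretch of 35 and of 50 bases in the transcripts was looked up in the other genes. Of 2113 stretches of 35 bases in *Tpm3-rs7*, 1616 (76.5%) were also in *Tpm3*, and of 2098 stretches of 50 bases, 1457 (69.4%) were. Within the coding part of *Tpm3-rs7* the shares were 87.4% and 85.0%. A single read from such a stretch carries no base that tells the reference copies apart. The paper gives the reads as paired-end, so the mate of such a read may cover a differing base. Read pairs were not looked up, so the share of pairs that cannot be placed is not known. The setting for reads that map to several places is not given in the sources used here. By contrast, *Tpm1* and *Tpm2* shared 3 stretches of 35 bases with each other and 0 of 50 with any gene. In *Tpm4*, 18.8% of the 35-base stretches were found elsewhere, mainly in the pseudogene *Gm7809* with 320 of 2169.

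**Figure D1:**
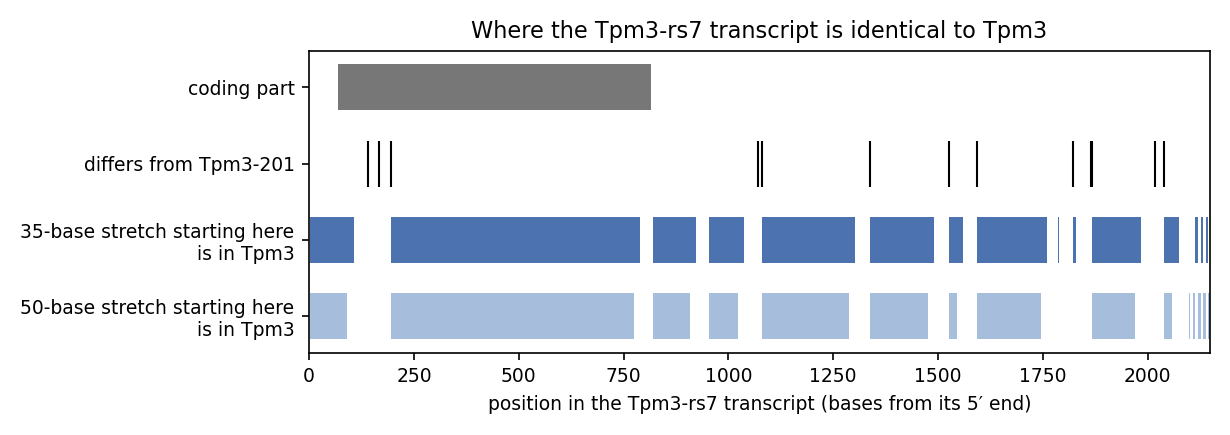
The *Tpm3-rs7* transcript by position in bases from its 5′ end (x axis), with the coding part, the 13 substitutions against Tpm3-201, and the positions at which a stretch of 35 or 50 bases that starts there is also in *Tpm3*. Identical stretches cover most of the transcript, 76.5% at 35 bases, and the 3 coding substitutions sit close together near the start of the coding part.

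Total recovered reads ran from 68803249 to 76581954 in Control and from 82227711 to 88745366 in LS1, so every LS1 library was deeper. Values are normalized counts, the read count divided by 1 size factor per library, and fold changes are on log2(normalized count + 1), fitted with limma over 19308 genes, those averaging 20 recovered reads or more. LS1 replicate 3 stood apart from its group on the first principal component, which held 35.1% of the variance. Its score was -4.29, against 43.7 and 50.1 for the other LS1 libraries and -41.5 to -22.1 in Control. *Xist*, the RNA that silences one X chromosome in females, was at 70194 to 71731 normalized counts in Control replicates 1 and 2 and LS1 replicate 2, and at 99.8 to 221 in the other 3 libraries. The Y-linked genes *Ddx3y* and *Uty* went the other way. In the *Xist*-low libraries they had 6723 to 12856 and 2528 to 4439 normalized counts, and in the *Xist*-high ones 32.1 to 39.4 and 17.4 to 35.5. The labels give no sex, but by these genes the *Xist*-high libraries read as female and the others as male. The mix was unequal, with 2 of 3 Control and 1 of 3 LS1 libraries high in *Xist*.

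The retrocopy *Tpm3-rs7* stood higher in LS1. It had 468, 492 and 523 normalized counts in Control replicates 1 to 3 and 5375, 5417 and 5101 in LS1 replicates 1 to 3. Every LS1 library was far above every Control library, and the 3 libraries within each line lay close together. The mean was 494.5 ± 27.6 in Control and 5298 ± 172 in LS1 (SD, n = 3 each), 10.7-fold higher in LS1, with a log2 fold change of 3.42 (SE 0.14). With LS1 replicate 3 left out it was 3.45, and it was 3.49 among the *Xist*-high libraries and 3.32 among the others.

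The parent *Tpm3* was lower in LS1. It had 6809, 7355 and 7505 normalized counts in Control and 3055, 3519 and 2783 in LS1. The lines did not overlap, and the lowest Control library was well above the highest LS1 library. The mean fell from 7223 ± 366 to 3119 ± 372 (SD, n = 3 each), 2.32-fold lower in LS1, with a log2 fold change of -1.22 (SE 0.13). It was -1.14 without LS1 replicate 3, -1.01 among the *Xist*-high libraries and -1.36 among the others.

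The sum of *Tpm3* and *Tpm3-rs7* overlapped between the lines. It was 7277, 7847 and 8028 in Control and 8430, 8937 and 7885 in LS1, with a log2 difference of 0.12 (SE 0.068). The mean of *Tpm3* fell by 4103 normalized counts and that of *Tpm3-rs7* was 4803 higher, so the sum was 700.0 higher in LS1. Whether reads of one copy were counted on the other was not tested.

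Within this sum, the share of reads counted on *Tpm3-rs7* was 6.43%, 6.27% and 6.52% in Control replicates 1 to 3 (95% exact binomial intervals from 5.72% to 7.11%). In LS1 it was 63.8%, 60.6% and 64.7% (intervals from 59.7% to 65.7%). The intervals cover counting error only. The share was steady within each line, with an SD of 0.124 percentage points in Control and 2.14 in LS1, and differed by 56.6 points. Per kb of exon, the mean share was 16.3% in Control and 82.8% in LS1. This scale gives the retrocopy more weight, because it divides *Tpm3* by all 6085 bases of its exons and *Tpm3-rs7* by 2147. The *Tpm3* transcript that the retrocopy matched is 2230 bases long, close to the retrocopy. The per-kb shares are therefore not read as shares of transcripts.

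*Tpm2*, the muscle and fibroblast beta form, was lower in LS1 by a smaller margin. Its normalized counts were 4375, 3957 and 4670 in Control and 1957, 3093 and 3939 in LS1. All LS1 values lay below Control, but LS1 replicate 3 came just under the lowest Control library, and LS1 replicate 1 was much lower than the rest. The mean was 4334 ± 358 in Control and 2996 ± 995 in LS1 (SD, n = 3 each), with a log2 fold change of -0.59 (SE 0.22). The value rested in part on single LS1 libraries, being -0.31 without LS1 replicate 1 and -0.81 without LS1 replicate 3. It was -0.43 among the *Xist*-high libraries and -0.75 among the others.

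Skeletal muscle markers moved in the same direction as *Tpm2*. Summed over 13 markers, they were 7440 to 16301 normalized counts in Control and 3515 to 10359 in LS1, so the lines overlapped. LS1 replicate 1 was lowest here as it was for *Tpm2*. All 12 tested markers of this list had a log2 fold change below 0 (median -0.64), and none was at 0 in all libraries. The adjusted limma threshold was passed by 0 of them, beside 0.0725% of all tested genes. Smooth muscle markers overlapped too, at 13637 to 15870 in Control and 12726 to 15899 in LS1. What part muscle had in the *Tpm2* difference was not tested.

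*Tpm1*, the most abundant member by counts, had 47196, 40609 and 44929 normalized counts in Control and 47153, 47192 and 54457 in LS1. The lines overlapped. Its mean was 44245 ± 3347 in Control and 49600 ± 4206 in LS1 (SD, n = 3 each), with a log2 fold change of 0.16 (SE 0.13). 

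*Tpm4* had 25349, 29064 and 29402 normalized counts in Control and 38441, 25825 and 34156 in LS1. The lines overlapped, since LS1 replicate 2 lay within the Control range, and LS1 varied more than Control. Its mean was 27938 ± 2249 in Control and 32808 ± 6415 in LS1 (SD, n = 3 each), with a log2 fold change of 0.22 (SE 0.16). The value ranged from 0.09 without LS1 replicate 1 to 0.38 without LS1 replicate 2, and was -0.07 among the *Xist*-high libraries and 0.30 among the others. Platelet markers, summed over 5 genes, were 21809 to 38296 in Control and 14929 to 27418 in LS1, and were lowest in LS1 replicate 1, the library with the most *Tpm4*. Their part in the *Tpm4* values was not tested. 

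Of the 5 members, 3 had groups that did not overlap, beside 19.2% of all tested genes. With LS1 above there was 1 member, beside 10.3% of all tested genes, and with LS1 below there were 2, beside 8.94%. The adjusted limma threshold was passed by 2 members, beside 0.0725% of all tested genes, by 1 with LS1 higher, beside 0.0104%, and by 1 with LS1 lower, beside 0.0622%. The members were chosen from this contrast, so nothing is read from these counts. *Tpm3*, one of the 2, no longer passed without Control replicate 2, which left 1. By absolute log2 fold change the members stood at percentile 99.9 (*Tpm3-rs7*), 97.8 (*Tpm3*), 86.7 (*Tpm2*), 50.5 (*Tpm4*) and 40.7 (*Tpm1*) of the tested genes, whose median absolute value was 0.21.

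**Figure D2:**
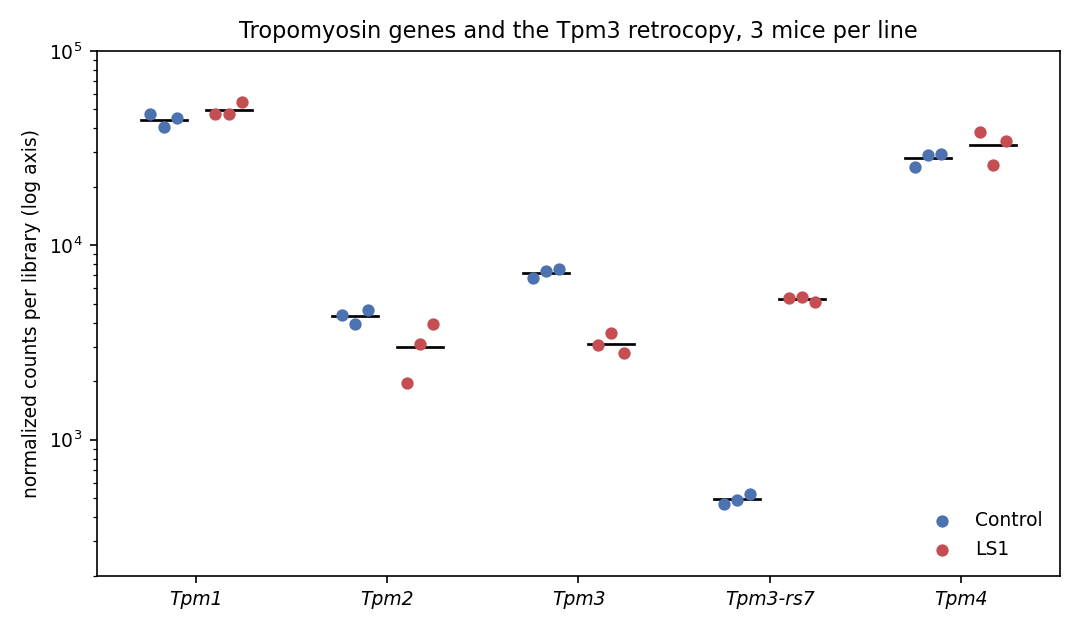
Normalized counts per library (y axis, log scale) for the 5 genes, with 1 point per mouse and a bar at the mean of the 3 mice of each line. *Tpm3-rs7* lies higher and *Tpm3* lower in all 3 LS1 mice, *Tpm2* is lower with 1 LS1 mouse just under the Control range, and *Tpm1* and *Tpm4* overlap.

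Levels of different genes were compared per kb of exon, using all annotated exons of a gene. These sum to 6485 bases for *Tpm1* and 6085 for *Tpm3*, but their longest protein-coding transcripts have 2890 and 2233. For *Tpm4* the lengths are 2203 and 2128. The scale therefore gives lower levels to *Tpm1* and *Tpm3* than a transcript length would, and the order depends on it. Levels by transcript length were not computed. In Control, *Tpm4* was highest with 12682 ± 1021 normalized counts per kb, followed by *Tpm1* with 6823 ± 516, *Tpm2* with 1490 ± 123, *Tpm3* with 1187 ± 60.2 and *Tpm3-rs7* with 230 ± 12.8 (SD, n = 3 each). In LS1 the order was *Tpm4* (14892 ± 2912), *Tpm1* (7648 ± 649), *Tpm3-rs7* (2468 ± 80.0), *Tpm2* (1030 ± 342) and *Tpm3* (513 ± 61.2). No neighbours in either order overlapped between libraries of the same line. On this scale the retrocopy stood last in Control and next after *Tpm1* in LS1, while *Tpm3* moved to last place. *Tpm4* and *Tpm1* were among the most abundant transcripts of the tissue, at percentiles 98.9 and 97.7 of the tested genes in Control per kb, and *Tpm3-rs7* was at percentile 46.4.

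Total tropomyosin, the sum of the 5 genes, overlapped between the lines, with 81476 to 87029 normalized counts in Control and 85047 to 100436 in LS1, or 0.109% and 0.121% of all normalized reads on average. Most of it was *Tpm1*, with a mean share of 52.5% in Control and 52.9% in LS1, and *Tpm4*, with 33.2% and 34.8%, and both shares overlapped between the lines. The share of *Tpm2* was 5.20%, 4.86% and 5.37% in Control and 2.04%, 3.64% and 3.92% in LS1, lower in every LS1 library. *Tpm3* went from a mean share of 8.58% to 3.36% and *Tpm3-rs7* from 0.587% to 5.68%, both without overlap. Together the 2 copies held 9.17% in Control and 9.05% in LS1 and overlapped. That last comparison depends on the scale, since per kb of exon the copies together held 6.32% in Control and 11.4% in LS1, without overlap. This scale divides *Tpm3* by all 6085 bases of its exons and *Tpm3-rs7* by 2147. The *Tpm3* transcript that the retrocopy matched has 2230 bases, close to the length of the retrocopy. Shares by transcript length were not computed, so the higher per-kb share in LS1 is not read as more transcripts of the pair.

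**Figure D3:**
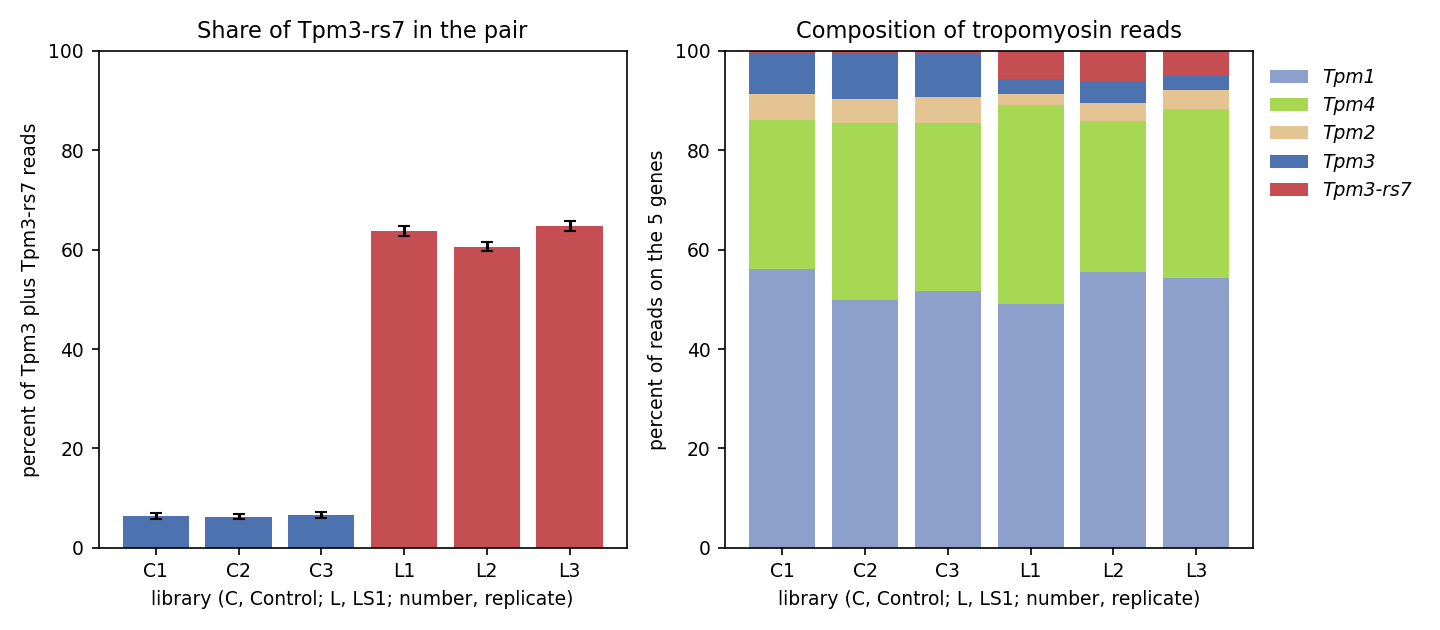
Left, percent of the reads on *Tpm3* plus *Tpm3-rs7* that were counted on *Tpm3-rs7* in each library, with 95% exact binomial intervals. Right, percent of reads on the 5 genes in each library, stacked by gene. The share of the retrocopy in the pair is 6.27% to 6.52% in Control and 60.6% to 64.7% in LS1, while *Tpm1* and *Tpm4* make up most of the stack in every library.

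The ratio of *Tpm1* to *Tpm2* was 10.8, 10.3 and 9.62 in Control and 24.1, 15.3 and 13.8 in LS1, higher in every LS1 library. *Tpm4* over *Tpm2* also did not overlap, with means of 6.48 ± 0.792 in Control and 12.2 ± 6.43 in LS1 (SD, n = 3 each), and LS1 replicate 1 at 19.6 set most of that spread. *Tpm1* over *Tpm4* overlapped (means of 1.60 ± 0.240 in Control and 1.55 ± 0.303 in LS1). Over the 6 libraries, which fall into the same 2 lines, Pearson's r of log2 values was -0.98 between *Tpm3* and *Tpm3-rs7* and 0.66 between *Tpm2* and *Tpm3*, given as a description since the difference between the lines sets much of it.

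Other loci that share stretches with the members had low or similar counts in both lines. The *Tpm4* pseudogene *Gm7809* had 2059 ± 439 normalized counts in Control and 1965 ± 208 in LS1 (log2 fold change -0.05, adjusted p = 0.931 from limma). *Gm26586*, which overlaps *Tpm4* on the opposite strand, had 38.1 and 43.4 (adjusted p = 0.884 from limma), and reads of the overlap cannot be told apart where strand is not used. The other *Tpm3* related sequence in the table, *Tpm3-rs2*, and the pseudogene *Gm19764*, which also shares stretches with *Tpm3*, had mean normalized counts of 6.28 and 7.22 in Control and 5.92 and 7.69 in LS1. *Gm15693* had 5.81 and 1.53. *Gm4157*, *Gm4903*, *Gm5996*, *Gm7839* and *Gm7848*, which share 35-base stretches with *Tpm3-rs7* too, were not analysed here.

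To see how the *Tpm3* pair stands among similar pairs, the ratio of copy to parent was followed for 245 other genes named as a related sequence or pseudogene of a tested parent. The log2 ratio of *Tpm3-rs7* to *Tpm3* was 4.64 higher in LS1, which ranked 1 of 246 by absolute change. The median absolute change of the other pairs was 0.25. The *Tpm3* pair was chosen because both genes were known to differ in this contrast, so its rank is only a description. Of these pairs, 0 passed the adjusted limma threshold and 17 had an unadjusted p under 0.05, and no other tool was run on the ratios. A high percentage of identical stretches was common. Of the 245 copies, 116 shared at least 50% of their 35-base stretches with the parent. At least the percentage of *Tpm3-rs7* (76.5%) was shared by 56.

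The next largest change was that of *Rps2-ps13* and the ribosomal protein gene *Rps2*, a log2 ratio 3.79 higher in LS1 (SE 2.01, adjusted p = 0.679 from limma) with 75.5% of stretches shared. It was followed by *Rps2-ps11* (2.01, adjusted p = 0.422), *Mrto4-ps2* (-1.54, adjusted p = 0.696), *Rps2-ps5* (1.53, adjusted p = 0.679) and *Rpl7a-ps9* (1.51, adjusted p = 0.452). The 3 *Rps2* copies share their parent and are not independent.

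**Figure D4:**
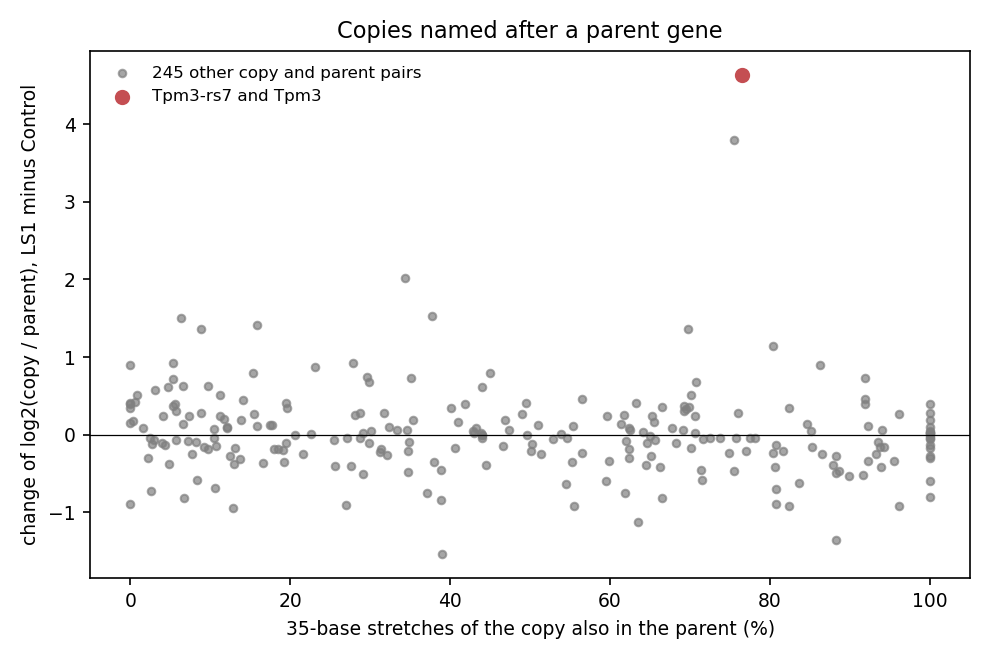
Change of the log2 ratio of copy to parent between LS1 and Control (y axis) against the percent of 35-base stretches of the copy that are also in the parent (x axis), for 245 pairs in grey and for *Tpm3-rs7* and *Tpm3* in red. The *Tpm3* pair, chosen because it differs in this contrast, has the largest change, 4.64, and most other pairs lie near 0 at every degree of sharing.

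The surroundings of the member loci differed in gene content. Within 1 Mb of *Tpm3*, 74 genes were tested and 0 passed the adjusted limma threshold, as did 0 of 21 around *Tpm1*, 0 of 40 around *Tpm2* and 0 of 55 around *Tpm4*. Of all tested genes 0.0725% passed it, so nothing is read from these counts of 0. Groups did not overlap for 11 of the 190 neighbours with LS1 above, beside 10.3% of all tested genes. With LS1 below there were 15, beside 8.94%. At an unadjusted p under 0.05 the 190 neighbours held 8 higher and 17 lower in LS1, beside 12.9% of all tested genes in either direction, so the neighbours were close to the background. The edgeR test called 0 of them and DESeq2 called 7, beside 459 of all 19308 genes. *Nup210l*, a nucleoporin gene that starts 3230 bases past the 3′ end of *Tpm3* on the same strand, had the smallest adjusted p of all. It had 233, 164 and 195 normalized counts in Control and 76.2, 50.5 and 57.8 in LS1, so that it was, like *Tpm3*, lower in all LS1 libraries. Its log2 fold change was -1.67 (SE 0.29, adjusted p = 0.0865 from limma), which did not pass the threshold, though it did with DESeq2 (adjusted p = 6.12e-05), and in limma when LS1 replicate 3 (adjusted p = 0.0271) or LS1 replicate 1 (adjusted p = 0.0490) was left out. The nearest tested gene on the other side, *4933434E20Rik*, ended 4302 bases before *Tpm3* and had an adjusted p of 0.981 from limma.

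No gene was tested within 1 Mb of *Tpm3-rs7*, where the table held 2 pseudogenes with mean normalized counts of at most 2.13 in either line. The nearest tested genes were *Slitrk5*, which encodes a transmembrane protein of neurons, at 1.63 Mb, and the microRNA host gene *Mir17hg* at 1.73 Mb. *Slitrk5* had 59.0 ± 12.3 normalized counts in Control and 97.4 ± 19.7 in LS1 (log2 fold change 0.71, adjusted p = 0.369 from limma). *Mir17hg* had 1219 ± 423 and 1416 ± 435 (log2 fold change 0.24, adjusted p = 0.761 from limma).

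Genes whose proteins work with tropomyosin on the actin filament were followed as a list of 57, of which 55 were tested. With limma 0 passed the adjusted threshold, beside 0.0725% of all tested genes, and 7 higher and 3 lower had an unadjusted p under 0.05, beside 12.9% of all tested genes. The edgeR test called 0 and DESeq2 called 1, beside 459 of the 19308 genes. The median log2 fold change of the list was 0.04, with a range from -1.14 to 0.78, against a median of 0.01 over all tested genes. Groups did not overlap for 8 of the 55 genes with LS1 above, beside 10.3% of all tested genes, and for 4 with LS1 below, beside 8.94%.

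Among severing proteins, *Dstn* (destrin), which depolymerizes actin filaments and competes with tropomyosin for them, had the smallest adjusted p of the list. It had 44843, 44602 and 42582 normalized counts in Control and 66905, 74425 and 85987 in LS1, without overlap. Its log2 fold change was 0.78 (SE 0.14, adjusted p = 0.0914 from limma). It passed the threshold with DESeq2 (adjusted p = 0.000158). With limma it also passed when LS1 replicate 3 (adjusted p = 0.0406) or LS1 replicate 1 (adjusted p = 0.0382) was left out.

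The tropomodulins, which cap the pointed end of tropomyosin-coated filaments, went both ways. *Tmod1*, the erythrocyte and muscle form, had 2522 ± 84.3 normalized counts in Control and 1752 ± 270 in LS1 (SD, n = 3 each; log2 fold change -0.54, adjusted p = 0.238 from limma). The widely expressed *Tmod3* had 9021 ± 403 and 11224 ± 1332 (log2 fold change 0.31, adjusted p = 0.357 from limma). Neither overlapped between the lines. Erythroid markers, summed over 5 genes, were 213908 to 308685 in Control and 143691 to 243468 in LS1, and their part in the *Tmod1* values was not tested.

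Of the actins, the filament subunits, *Actg1* had the highest level (79690 ± 2307 and 88869 ± 7515; log2 fold change 0.15, adjusted p = 0.640 from limma). The cardiac actin *Actc1* was at 55.5 ± 14.5 in Control and 24.2 ± 3.14 in LS1 (log2 fold change -1.14, adjusted p = 0.279 from limma). The troponins, which place tropomyosin on the filament of striated muscle, had 0 of 7 tested genes with an unadjusted p under 0.05. The highest was *Tnni2* (log2 fold change -0.32, adjusted p = 0.546 from limma), and the largest difference was that of *Tnnt3* (-0.68, adjusted p = 0.707 from limma).

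In the remaining roles 0 genes passed the adjusted limma threshold. Among calponins and their relatives, *Cnn2* was the most abundant (log2 fold change -0.20) and the low *Cnn1* (60.1 and 34.1 normalized counts) had the largest value, -0.75. *Myh9*, the heavy chain of non-muscle myosin II, had 0.09, and its light chain gene *Myl12a* 0.32. The crosslinker *Flna* (filamin A), the most abundant of its role, had 0.04, and *Actr2* of the Arp2/3 nucleator had 0.39. *Rhoa*, the small GTPase that drives contractility, had 0.17, and *Srf*, the transcription factor of many actin genes, had -0.28. The adjusted p of the genes named in these roles was at least 0.285 in limma. Of the genes named in these roles, groups did not overlap for *Cnn1*, lower in LS1, and for *Myl12a* and *Actr2*, higher in LS1. Over whole roles, LS1 lay above without overlap for 3 of 5 crosslinkers, 2 of 7 nucleators and 1 of 7 myosin II genes. It lay below for 2 of 6 calponins and relatives, and the contractility genes all overlapped. Over all tested genes these shares were 10.3% above and 8.94% below.

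**Figure D5:**
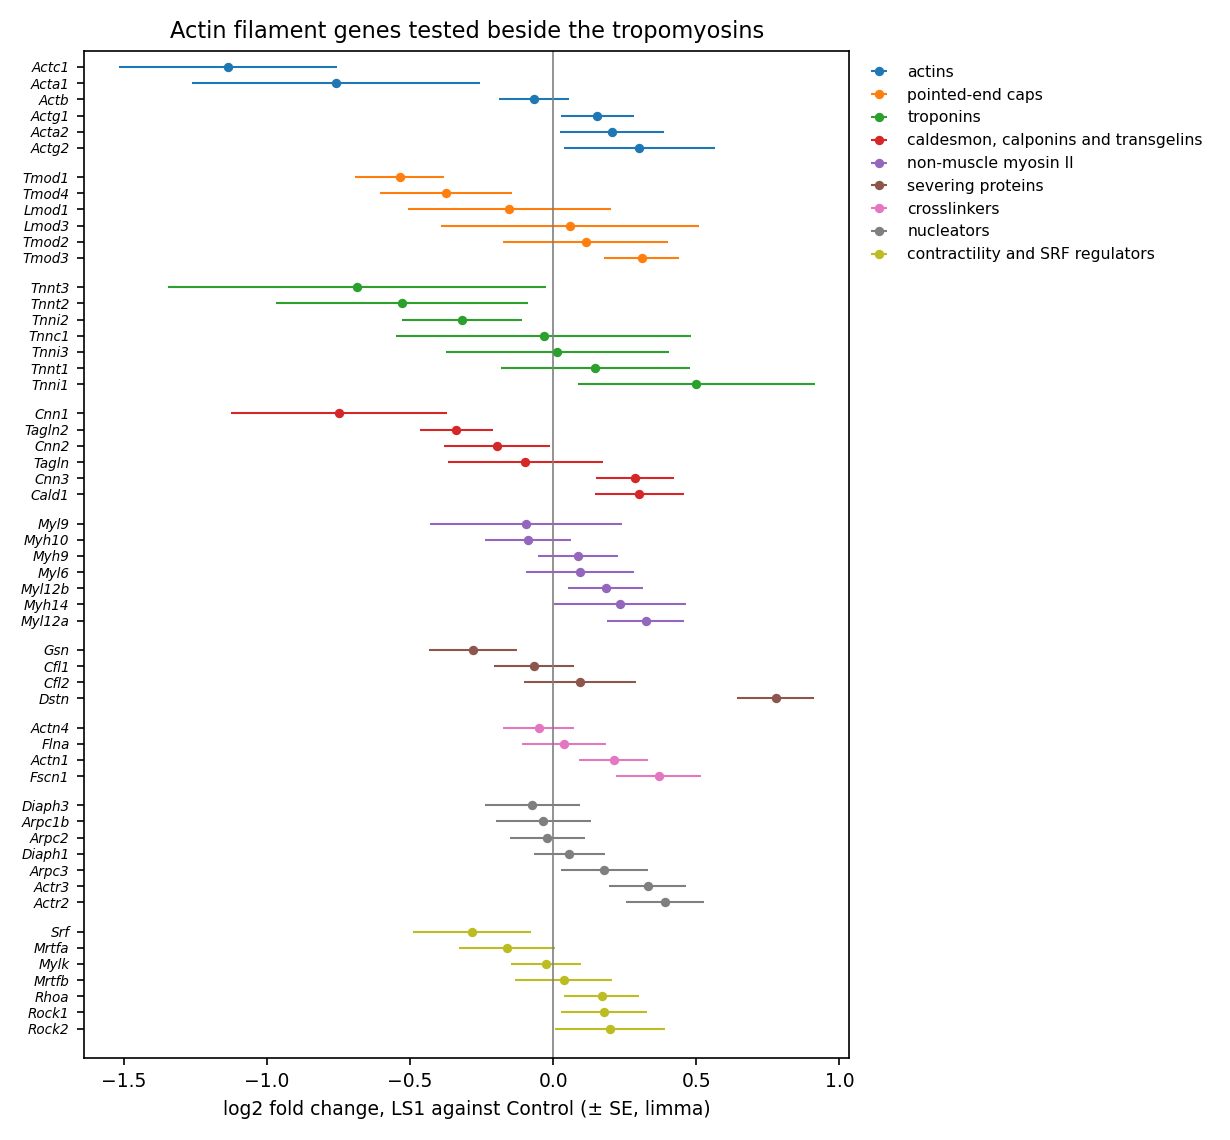
Log2 fold change of LS1 against Control with its SE from limma (x axis) for 54 of the 55 tested partner genes, grouped and coloured by role. Most lie within 0.5 of 0, *Dstn* is highest at 0.78 and *Actc1* lowest at -1.14, and 0 of the 55 passed the adjusted threshold.

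The genes whose log2 values followed each member most closely over the 6 libraries were named by Pearson's r, as a description. For *Tpm3-rs7* they were *Slc19a3*, a thiamine transporter (0.993), *Parp8* (0.990) and *Col9a3*, a collagen chain of cartilage (0.990). For *Tpm3* they were *Siglece* (0.997), *Wdr33* (0.992) and the pseudogene *Fabp3-ps1* (0.989). With 6 libraries a high r is frequent, as 78 genes reached at least 0.95 with *Tpm3-rs7* and 61 with *Tpm3*.

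For *Tpm2* the genes were *Crtc1*, *Gm5702* and *Maf1*, with 254 genes at 0.95 or above. For *Tpm1* they were *Med28*, *Orm1* and *Ripk4* with 35 such genes, and for *Tpm4* *Sptlc2*, *Aga* and *Gm42798* with 32. Chondrocyte markers were the most abundant of the marker lists beside those of osteoblasts. Summed, they were 2108650 to 2412480 normalized counts in Control and 2701130 to 3160940 in LS1. Their log2 fold changes were above 0 for 7 of 7 (0.19 to 0.94), the direction of *Tpm3-rs7* (3.42). The adjusted limma threshold was passed by 0, beside 0.0725% of all tested genes. Macrophage markers also had 4 of 4 above 0 (0.09 to 0.83). Their sums overlapped, at 24882 to 34317 in Control and 31282 to 33030 in LS1. What part either cell type had in the *Tpm3-rs7* values was not tested.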

How the data were processed

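RNAseq of polyadenylated RNA compared the tibial epiphyses of 3 LS1 with 3 Control mice. The authors mapped paired-end reads of 35 to 50 bases to GRCm38 with HISAT2 2.0.2 and counted them per Ensembl gene with featureCounts 1.4.6. Strand and multi-mapping settings are not given in the sources used here. The deposited values (signal) are read counts per gene over 1 size factor per library. Dividing by the value of 1 read (0.870 to 1.11) gave whole reads for 100% of values, within 0.01. In Control replicate 1 this value was 1.009, so recovered reads and normalized values lay close together there. The table had 0 unused sample columns.

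Because the values are normalized, log2(value + 1) was fitted per gene with limma 3.58.1 in R 4.3.3 (trend and robust moderation), with Benjamini-Hochberg adjustment at 0.05. Alternatives were edgeR 4.0.16 and DESeq2 1.42.0 on recovered reads, TMM scaling, other filters (none, 100 reads) and pseudocounts (0.5, 5), a replicate block, and each library left out. The main limma fit, edgeR and DESeq2 were tested on simulated data, and the other alternatives were not. Copy-to-parent log2 ratios were fitted with limma without a trend, and this fit was also tested on simulated data.

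Names, positions and transcript sequences were taken from GENCODE M21 (GRCm38), which is later than the Ensembl release the authors counted, and 99.1% of identifiers had a symbol. Members and lists were chosen with earlier results of these data known. Named genes were the 5 members, the highest and the most different partner of each role, the nearest tested genes of *Tpm3* and *Tpm3-rs7*, the 5 most changed pairs, the 3 genes most like each member, and loci sharing sequence. A partner gene that this rule names is not reported here. *Xist*, *Ddx3y*, *Uty* and the marker sums are given beside them. Replicates are separate mice. The smallest library held 68803249 reads.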

Additional observations from a re-analysis of the deposited data

How the results depend on the processing

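Counts of called genes depended on the setting. All tested genes gave 14 with limma, 7 with edgeR, 459 with DESeq2, 45 with no filter and 9 with a mean of at least 100 reads, and from 5 to 324 with 1 library left out. The edgeR test without Control replicate 1, chosen after the data were seen, gave 5. Partner genes called were 0, but 1 with DESeq2 and 1 with no filter, and 0 to 1 with 1 library left out. Neighbour genes called were 0, but 7 with DESeq2 and 1 with no filter, and 0 to 6 with 1 library left out. Tropomyosin members called were 2, and 1 to 2 with 1 library left out, and 1 with edgeR without Control replicate 1. Pairs called were 0, and 0 to 1 with 1 library left out, the 1 without Control replicate 3.

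The log2 fold changes of the 5 members kept their sign and moved by less than 1 SD between replicates under the other tools, scaling, filters and pseudocounts, the block and each library left out. Within the *Xist*-high and the other libraries, a split chosen after the data were seen, *Tpm4* changed sign among the high (-0.072), *Tpm3* was -1.01 and -1.36, and *Tpm3-rs7* was 3.49 and 3.32. Leaving out 1 library gave 3.38 to 3.46 for *Tpm3-rs7*, -1.31 to -1.14 for *Tpm3*, -0.81 to -0.31 for *Tpm2*, 0.10 to 0.21 for *Tpm1* and 0.09 to 0.38 for *Tpm4*. The share of *Tpm3-rs7* in the pair differed by 55.8 to 57.8 points with 1 library left out and by 66.6 per exonic kb. That of *Tpm2* in total tropomyosin differed by -2.30 to -1.36 points, and by -2.72 per exonic kb. The differences for *Tpm1* (0.44 points, -0.89 to 2.35) and *Tpm4* (1.62 points, -1.0 to 3.84) changed sign with 1 library left out, and per exonic kb, at -1.51 and -0.80 points. The cause of these changes was not tested.

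The letters in the sample titles did not pair the samples (correlations of deviations 0.05, 0.02 and 0.22 for A, B and C). With the replicate block 12 genes were called, 0 of them partners or neighbours, and 0 pairs.

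Depth did not limit the members, which had at least 444 reads in every library. The 3 mice per line, the mix of *Xist*-high libraries and the deeper LS1 libraries limit the comparison.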
